A study of Mus musculus with 16 samples.

Results

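The genes described here are 9 enzymes of citrulline, proline and D-amino acid metabolism, out of 55359 genes counted by RNA sequencing: Oat, Otc, Cps1, Ass1, Arg2, Prodh, Aldh18a1, Pycr1 and Dao. They were taken by symbol, each matched to its Ensembl identifier, and all 9 were abundant enough to be tested in every comparison. The data are 16 libraries of total RNA from 8 adult male C57BL/6N mice on a standard diet, with 4 libraries in each of 4 groups. Mutants (animals NFVCT27, NFVCT38, NFVCT153 and NFVCT190) were Neurog3f/f; Villin-CreERT2, and their ileum and duodenum form 2 of the groups. Controls (NF17, NF29, NF32 and NF152) were Neurog3f/f without the Cre transgene, and their ileum and duodenum form the other two. Every group thus carries the floxed allele, and all tissue was collected 18 weeks after tamoxifen; the labels do not say separately whether controls received it. Villin-CreERT2 acts in the intestinal epithelium, so Neurog3, which starts the enteroendocrine fate, was deleted there. An effect of the transgene cannot be told apart from that of the deletion.

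The gut epithelium makes citrulline from glutamine, glutamate and proline. Aldh18a1 turns glutamate into pyrroline-5-carboxylate, a hub that Oat converts to ornithine, that Pycr1 reduces to proline and that Prodh forms when proline is oxidised. Cps1 makes carbamoyl phosphate, and Otc joins it to ornithine to give citrulline, which the adult gut releases for the kidney to make arginine. Ass1 is the next step from citrulline towards arginine, and Arg2, the mitochondrial arginase, splits arginine into ornithine and urea. Dao, D-amino-acid oxidase, is a peroxisomal enzyme that breaks down neutral D-amino acids, many of which come from bacteria in the gut, and releases hydrogen peroxide.

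Library totals ran from 8213889 to 35076714 counts. Neurog3 had 0 counts in all 8 mutant libraries and 8 to 37 in control libraries, and the 8 enteroendocrine genes listed had log2 fold changes below 0 in both tissues. The distal identity genes, among them the ileal bile acid genes Fabp6 and Slc10a2, had a mean log2 CPM from 5.74 to 6.53 in ileal libraries and from -1.74 to -0.78 in duodenal ones, as the tissue labels say. Pancreatic acinar genes took 2.31 to 21.5% of counts in the mutant duodenum and 7.80 to 17.01% in the control duodenum. Levels below are CPM, read counts scaled to library size over the 16 libraries. A gene was called at a Benjamini-Hochberg adjusted p under 0.05 over all genes of edgeR's quasi-likelihood test, and each adjusted p and standard error (SE) below is from that test.

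In the mutant ileum, 2 of the 9 genes rose and none fell, against a background of 3.28% of tested genes called, 1.77% higher and 1.51% lower. Dao rose most, and Prodh rose less. In the mutant duodenum none of the 9 was called, where 0.394% of genes were (0.0952% higher and 0.299% lower), and DESeq2 and limma-voom called 0. An unadjusted p under 0.05 was found for 5 of the 9 in the ileum and 2 of the 9 in the duodenum. The number of all genes with such a p was not counted, but ranks by p bound it. In the ileum Aldh18a1, which had such a p, ranked 1918 of 14951 genes, and Arg2, which had not, ranked 3139. In the duodenum Dao, which had such a p, ranked 550 of 14703 genes, and Arg2, which had not, ranked 1696. The number in each tissue lay between these ranks. The median log2 fold change of the 9 was 0.05 in the ileum and 0.02 in the duodenum, beside -0.0061 and -0.00015 over all genes tested. In bulk tissue, more cells of a type and more RNA per cell cannot be told apart.

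Dao had 10.6, 15.7, 13.0 and 13.0 CPM in the ileum of mutants NFVCT27, NFVCT38, NFVCT153 and NFVCT190. In the ileum of controls NF17, NF29, NF32 and NF152 it had 5.92, 3.65, 5.57 and 5.39 CPM. Every mutant ileum was above every control ileum. Ileal Dao rose 2.52-fold, or by 1.33 in log2 units (SE 0.18, adjusted p = 0.000865), and it was called in all 8 fits that left out 1 library (log2 fold changes from 1.22 to 1.42).

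In the duodenum Dao lay the other way. It had 29.03, 23.4, 29.6 and 13.2 CPM in those mutants, in the same order, and 38.7, 35.3, 34.3 and 34.0 CPM in the controls. No mutant duodenum reached the lowest control, with NFVCT190 far under the other mutants. The duodenal log2 fold change of Dao, -0.59 (SE 0.20, 95% interval -1.03 to -0.16), did not pass over all genes (adjusted p = 0.333). The log2 fold change was -0.42 without NFVCT190 (adjusted p = 0.162). That library also had the highest acinar share (21.5%) and the lowest enterocyte score (a mean log2 CPM of 9.55, against 10.3 to 10.6 in the other mutants and 10.1 to 10.7 in controls). With all libraries and the acinar score as a covariate, the duodenal log2 fold change of Dao was -0.66 (adjusted p = 0.329).

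**Figure D1:**
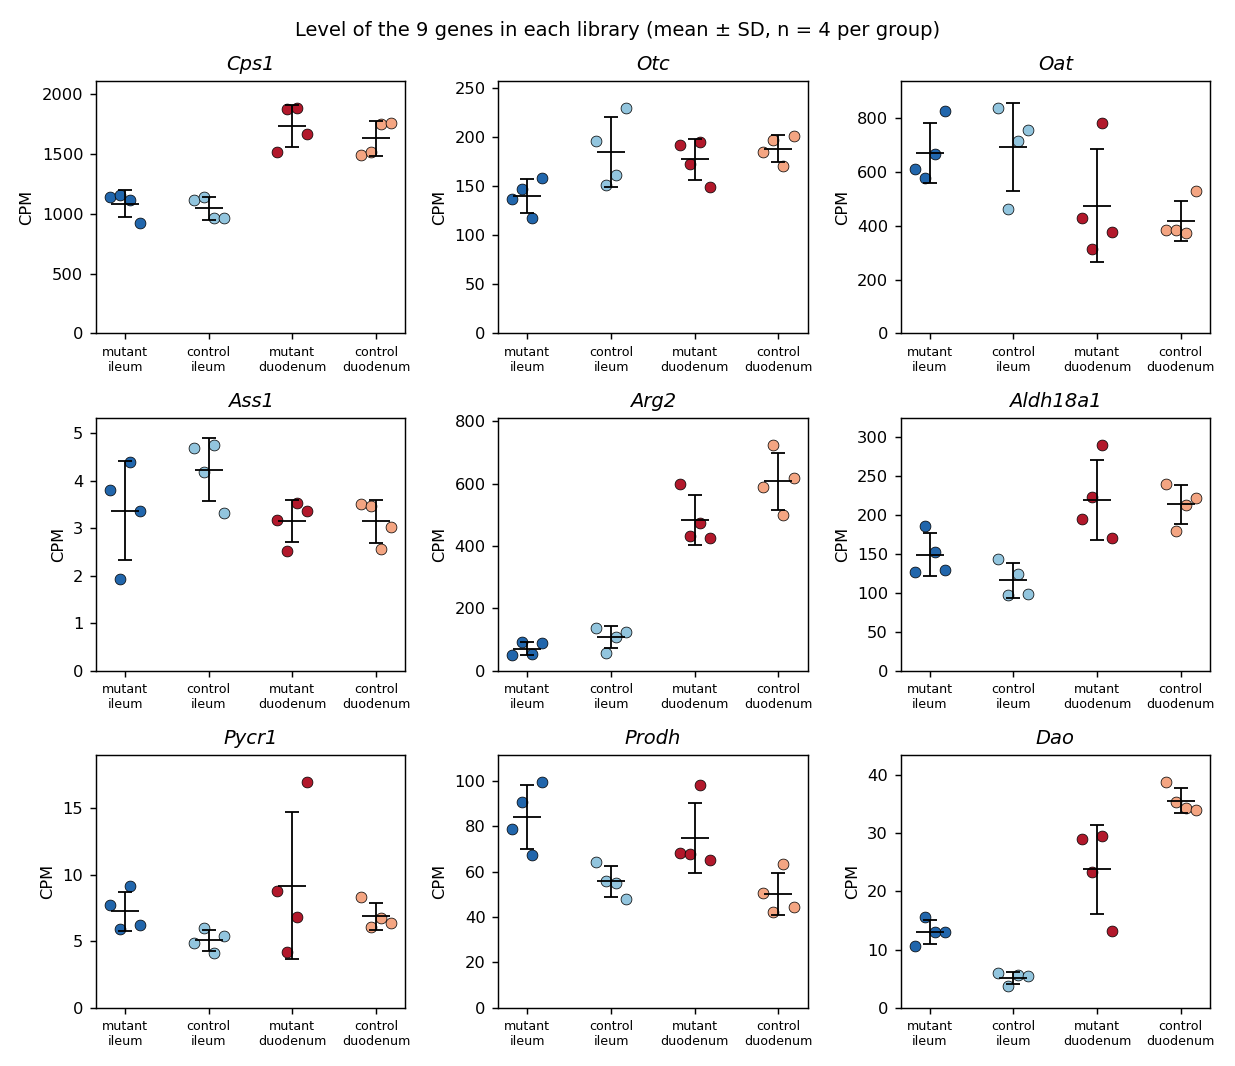
CPM of each of the 9 genes in each library (points), with the mean and SD of the 4 libraries of a group (bars), from mutant and control ileum on the left to mutant and control duodenum on the right; each panel has its own axis from 0. Dao is higher in every mutant ileum than in any control ileum and lower in every mutant duodenum than in any control duodenum, and Prodh is higher in every mutant library than in any control library of the same tissue.

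The genotype effect on Dao differed between the tissues. The ileal log2 fold change exceeded the duodenal one by 1.94 (SE 0.27, adjusted p = 0.00488, 95% interval 1.37 to 2.51). Dao was 1 of only 7 genes called in that test, 0.0441% of those tested (0.0378% higher and 0.00630% lower), and rank 3 by p. With the animal as a block, the difference was 2.01 (adjusted p = 0.0116). It was not called without animal NFVCT38 (1.82, adjusted p = 0.0679), and was called in each of the other 7 fits that left out 1 animal.

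Within an animal, ileal Dao amounted to 36.5% of the duodenal level in mutant NFVCT27, 67.0% in NFVCT38, 43.9% in NFVCT153 and 99.1% in NFVCT190. The shares were 15.3% in control NF17, 10.3% in NF29, 16.3% in NF32 and 15.8% in NF152. The ranges do not overlap, and NFVCT190, with the low duodenal value, gave the highest share. Ileal Dao was 0.544 times the duodenal level in mutants (-0.88 in log2 units, SE 0.22, adjusted p = 0.00964) and 0.144 times in controls (-2.79, SE 0.15, adjusted p = 2.63e-08). The tissues overlap in mutants, through the NFVCT190 duodenum, and not in controls. The mutant value was not called without NFVCT27 (-0.69, adjusted p = 0.0754) or NFVCT153 (-0.77, adjusted p = 0.0614).

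**Figure D2:**
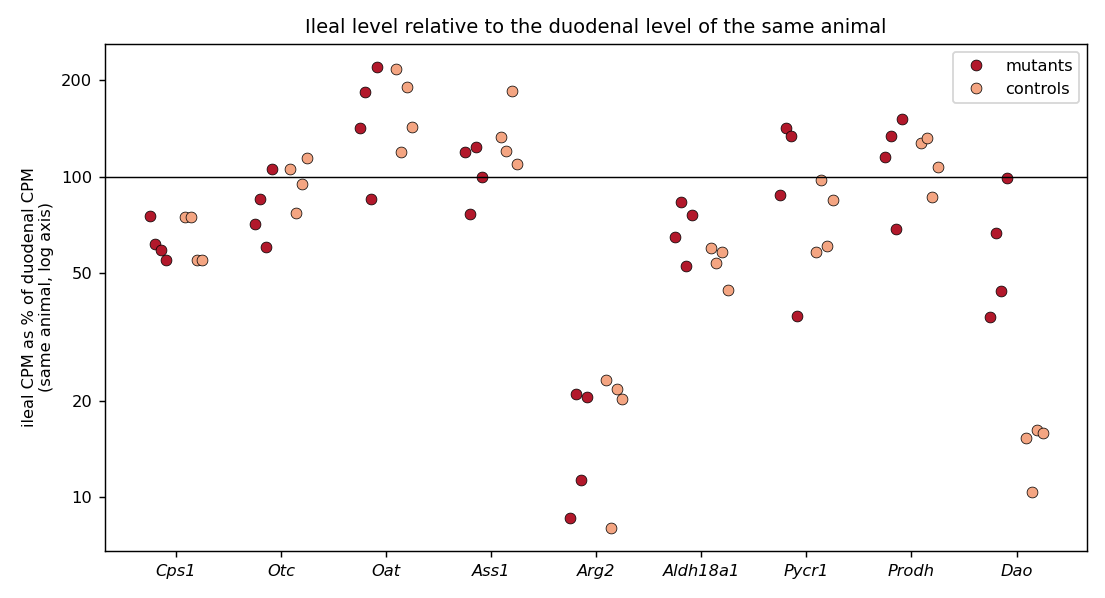
Ileal CPM as a percentage of the duodenal CPM of the same animal (log axis) for each gene, with mutants left of controls and 1 point per animal; the line marks 100%. The mutants lie apart from the controls for Dao (36.5 to 99.1% against 10.3 to 16.3%), and the ranges of the other 8 genes overlap.

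RefSeq (build GRCm38.p6) lists 3 starts for Dao. The 250 bases before the starts of Dao, Prodh, Pycr1 and Aldh18a1 are printed because these are the genes that were called by genotype and the enzymes at either end of proline synthesis; the window of Dao start 2 overlaps that of start 1 and is left out. Each run is 5′ to 3′ on the gene's strand and ends just before the start, with capitals marking matches on either strand to the motifs searched.
Dao, start 1, chr5:114003485-114003734, plus strand: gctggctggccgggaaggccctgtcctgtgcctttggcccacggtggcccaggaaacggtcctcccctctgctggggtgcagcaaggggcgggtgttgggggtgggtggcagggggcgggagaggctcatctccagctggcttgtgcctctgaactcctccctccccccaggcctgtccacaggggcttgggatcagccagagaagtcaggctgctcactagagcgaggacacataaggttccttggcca
Dao, start 3, chr5:114004558-114004807, plus strand: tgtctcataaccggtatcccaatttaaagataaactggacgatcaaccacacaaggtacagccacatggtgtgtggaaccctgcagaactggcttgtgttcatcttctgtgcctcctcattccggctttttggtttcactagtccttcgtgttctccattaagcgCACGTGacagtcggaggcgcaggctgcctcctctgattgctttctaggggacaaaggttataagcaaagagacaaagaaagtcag
Prodh, chr16:18089191-18089440, minus strand: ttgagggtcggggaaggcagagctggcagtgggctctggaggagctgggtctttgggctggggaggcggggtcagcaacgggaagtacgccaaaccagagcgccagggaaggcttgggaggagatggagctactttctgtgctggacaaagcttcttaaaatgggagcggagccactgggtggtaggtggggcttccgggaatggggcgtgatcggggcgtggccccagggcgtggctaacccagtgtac
Pycr1, chr11:120643749-120643998, minus strand: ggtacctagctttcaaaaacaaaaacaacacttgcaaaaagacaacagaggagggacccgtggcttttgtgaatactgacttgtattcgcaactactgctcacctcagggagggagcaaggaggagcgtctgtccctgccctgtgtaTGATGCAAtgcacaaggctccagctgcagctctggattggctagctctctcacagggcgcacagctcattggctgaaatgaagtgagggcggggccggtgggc
Aldh18a1, chr19:40588464-40588713, minus strand: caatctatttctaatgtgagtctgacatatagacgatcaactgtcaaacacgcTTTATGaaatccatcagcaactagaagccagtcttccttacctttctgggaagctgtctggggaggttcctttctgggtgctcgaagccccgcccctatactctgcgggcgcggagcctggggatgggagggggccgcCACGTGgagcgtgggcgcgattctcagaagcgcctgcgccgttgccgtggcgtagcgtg

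The motifs were GATAAG of GATA factors, CACGTG (the E-box), TGATGNAA of ATF4 with its partners, CAAAGTCCA of Hnf4a and TTTATG of Cdx factors. Of all 32851 windows in the table, 6.55% hold GATAAG, 6.02% CACGTG, 3.45% TGATGNAA, 0.384% CAAAGTCCA and 10.8% TTTATG. Dao has CACGTG before start 3, beginning 85 bases upstream, and no match before starts 1 and 2. Pycr1 has TGATGNAA beginning 103 bases upstream, and Aldh18a1 has CACGTG and TTTATG. Otc has GATAAG and TTTATG, Ass1 has CACGTG, and Oat and Prodh have no match. Windows were found for 7 of the 9 genes. The counts are per gene and do not say which start was used; a match is a description of the letters only.

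Prodh, the enzyme that begins proline oxidation, had 78.7, 90.8, 67.2 and 99.5 CPM in the ileum of mutants NFVCT27, NFVCT38, NFVCT153 and NFVCT190. Control ileum, from NF17, NF29, NF32 and NF152, had 64.4, 56.1, 54.9 and 47.8 CPM. The groups do not overlap, although the lowest mutant and the highest control lie close. Ileal Prodh rose 1.499-fold, or by 0.58 in log2 units (SE 0.13, adjusted p = 0.0216). The call was lost without control NF32 or NF152 or without mutant NFVCT38 or NFVCT190 (adjusted p from 0.0618 to 0.0787), with log2 fold changes from 0.50 to 0.67 over the 8 such fits.

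In the duodenum Prodh had 68.4, 67.8, 98.1 and 65.4 CPM in the mutants and 50.5, 42.4, 63.3 and 44.4 CPM in the controls. Again every mutant was above every control, with NFVCT153 well above the other mutants. The log2 fold change of 0.56 (SE 0.16, 95% interval 0.22 to 0.91) did not pass over all genes (adjusted p = 0.21). The ileal effect minus the duodenal one was 0.03 (SE 0.22, 95% interval -0.42 to 0.49, adjusted p = 0.999988). In each tissue, Prodh and Dao were the 2 members of 9 whose genotype groups did not overlap; over all genes tested this held for 9.79% in the ileum and 5.54% in the duodenum.

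The gene model of Prodh lies partly over that of Dgcr6 on the other strand, without shared exon bases in GENCODE M21, and the strand setting of the counting is not given in the sources used here. Dgcr6 had 30.2 ± 7.4 CPM in the mutant ileum and 25.5 ± 3.6 CPM in the control ileum (± is the SD of n = 4 libraries here and below). Its log2 fold change was 0.24 (SE 0.16, adjusted p = 0.527) in the ileum and -0.03 (SE 0.18, adjusted p = 0.989) in the duodenum.

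Markers of other cell types moved with the ileal genotype, beside the changes of Dao and Prodh. All 11 smooth muscle genes had log2 fold changes above 0, with 7 called, and their summed level was 5739 to 7574 CPM in the mutant ileum and 3579 to 5023 CPM in the control ileum. Of 12 crypt and proliferation genes 11 were below 0, with 1 called, and their sum was 1085 to 1298 CPM in the mutants and 1521 to 1829 CPM in the controls. Of 10 macrophage genes 9 were below 0, with 1 called (sums of 294 to 384 CPM in mutants and 410 to 483 CPM in controls). None of these genes was at 0 throughout. The 12 enterocyte genes (3 above 0 and 9 below, 1 called each way) summed to 15905 to 17551 CPM in mutants and 17999 to 20969 CPM in controls, though their score was 10.1 ± 0.1 in mutants and 10.2 ± 0.1 in controls (two-sided exact permutation p = 0.171, n = 4 each). The 7 distal identity genes (5 below 0, none called) summed to 1923 to 3085 CPM in mutants and 3411 to 5566 CPM in controls. Of 10 hepatocyte genes 4 were tested, 3 of them above 0 and none called, with Serpina1a at 0 (sums of 21.9 to 43.2 CPM in mutants and 16.8 to 22.1 CPM in controls). The part of the macrophage, enterocyte, distal, proximal and hepatocyte genes in these results was not tested.

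With the smooth muscle score as a covariate, the ileal log2 fold change was 1.05 for Dao (adjusted p = 0.432) and 0.57 for Prodh (adjusted p = 0.579), and 21 genes in all were called in place of 490. With the crypt score it was 0.84 for Dao (adjusted p = 0.256) and 0.50 for Prodh (adjusted p = 0.42), with 145 genes called. Neither score overlaps between the genotypes, so score and genotype cannot be told apart in these fits.

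Beside Dao in the duodenum, the scores of the proximal identity and macrophage lists did not overlap between genotypes. Those of the smooth muscle and distal identity lists overlapped. In the proximal identity, macrophage and smooth muscle lists no gene was called or at 0 throughout. All 7 proximal identity genes had log2 fold changes below 0, and their sum was 1545 to 3204 CPM in mutants and 2557 to 5529 CPM in controls. Their score was 7.29 ± 0.13 in mutants and 7.86 ± 0.37 in controls (two-sided exact permutation p = 0.0286, which with n = 4 each is the lowest attainable). Of 10 macrophage genes 8 were below 0 (sums of 201 to 371 CPM in mutants and 398 to 420.4 CPM in controls), and all 11 smooth muscle genes were above 0 (1561 to 3824 CPM in mutants and 1415 to 2909 CPM in controls, overlapping). Of the 7 distal identity genes 3 were tested, 2 above 0 and 1 below, with none called and Fgf15 at 0. They summed to 51.0 to 90.7 CPM in mutants and 34.1 to 51.1 CPM in controls, overlapping. The part of these lists in the duodenal values was not tested.

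The 3 enzymes that carry citrulline synthesis from the hub were not called by genotype in either tissue. Cps1, the most abundant of the 9 by CPM, had 1144, 1159, 1114 and 920.1 CPM in the ileum of mutants NFVCT27, NFVCT38, NFVCT153 and NFVCT190, and 1118, 1140, 961 and 965 CPM in the ileum of controls NF17, NF29, NF32 and NF152. These ranges lie over each other. Its log2 fold change was 0.05 in the ileum (95% interval -0.21 to 0.30, adjusted p = 0.914) and 0.07 in the duodenum (-0.34 to 0.49, adjusted p = 0.975).

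Otc had 137, 147, 118 and 159 CPM in the mutant ileum and 196, 151.6, 162 and 229.9 CPM in the control ileum, in the same orders of animals. A single mutant, NFVCT190, reached the control range. The log2 fold change of Otc was -0.40 (SE 0.13, 95% interval -0.68 to -0.13), with an adjusted p = 0.116, and it was called only with no filter on low counts (adjusted p = 0.0231). In the duodenum it was -0.10 (95% interval -0.37 to 0.16, adjusted p = 0.908). The difference between these effects was -0.29 (SE 0.18, unadjusted p = 0.129).

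Oat had 612, 579, 666 and 828 CPM in the mutant ileum and 838, 462, 717 and 756 CPM in the control ileum. In the duodenum it had 430.2, 315, 781 and 376 CPM in mutants and 385, 386, 374 and 529 CPM in controls. A single library of each duodenal group stood high, mutant NFVCT153 and control NF152. The log2 fold changes of Oat were -0.05 in the ileum (95% interval -0.40 to 0.30, adjusted p = 0.933) and 0.16 in the duodenum (-0.40 to 0.72, adjusted p = 0.948). Without NFVCT153 the duodenal value was -0.16.

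**Figure D3:**
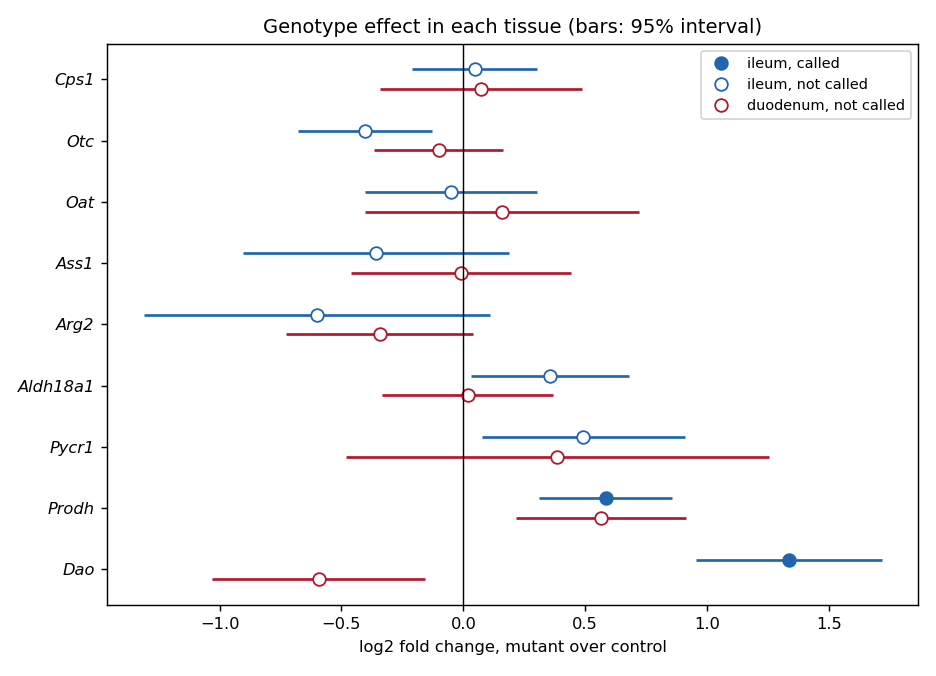
Log2 fold change of each gene, mutant over control, in the ileum (upper point of each pair) and the duodenum (lower point), with 95% intervals; filled points were called. Dao (1.33) and Prodh (0.58) in the ileum are the called values, and Dao is the gene whose intervals in the tissues lie on opposite sides of 0.

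The arginine steps were not called by genotype either. Ass1 was among the lowest of the 9, with 31 to 62 counts in mutant ileum, 47 to 129 in control ileum, 32 to 118 in mutant duodenum and 28 to 57 in control duodenum. Its level was 3.37 ± 1.05 CPM in the mutant ileum and 4.23 ± 0.66 in the control ileum (log2 fold change -0.36, 95% interval -0.90 to 0.19, adjusted p = 0.563). In the duodenum it was 3.15 ± 0.45 CPM in mutants and 3.14 ± 0.44 in controls (-0.01, 95% interval -0.46 to 0.44, adjusted p = 0.996).

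Arg2 had 51.4, 90.9, 53.4 and 87.5 CPM in the ileum of mutants NFVCT27, NFVCT38, NFVCT153 and NFVCT190, and 137, 58.0, 108 and 125 CPM in the ileum of controls NF17, NF29, NF32 and NF152. Control NF29 lies within the mutant range and the other controls above it. The log2 fold change of Arg2 was -0.60 (SE 0.30, 95% interval -1.31 to 0.11, adjusted p = 0.409). With the crypt score as a covariate it was -1.67 (adjusted p = 0.0189). In the duodenum it had 599, 433, 474 and 425 CPM in mutants and 590, 724, 498 and 618 CPM in controls (-0.34, SE 0.17, adjusted p = 0.647). Arg2 shares 285 exon bases with Vti1b on the other strand, which had 53.0 ± 6.6 CPM in the mutant ileum and 56.0 ± 4.7 in the control ileum.

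The enzymes of proline synthesis had ileal log2 fold changes above 0 that did not pass over all genes. Aldh18a1 had 127, 186, 152.3 and 129 CPM in the mutant ileum and 144, 96.5, 124 and 98.5 CPM in the control ileum, with overlap. Its log2 fold change was 0.36 (SE 0.15, 95% interval 0.03 to 0.68, adjusted p = 0.26), and -0.23 with the smooth muscle score as a covariate (adjusted p = 0.81). Pycr1 had 7.71, 5.93, 9.13 and 6.22 CPM in the mutant ileum and 4.86, 5.96, 4.11 and 5.39 CPM in the control ileum, where the highest control just exceeded the lowest mutant. Its log2 fold change was 0.49 (SE 0.19, 95% interval 0.08 to 0.91, adjusted p = 0.216).

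In the duodenum Aldh18a1 had 219 ± 51 CPM in mutants and 213 ± 25 in controls (0.02, 95% interval -0.33 to 0.37, adjusted p = 0.99). Pycr1 had 8.78, 4.16, 6.81 and 16.95 CPM in mutants NFVCT27, NFVCT38, NFVCT153 and NFVCT190 and 8.35, 6.08, 6.78 and 6.37 CPM in controls NF17, NF29, NF32 and NF152. NFVCT190, the library of highest acinar share, stands far above the rest. The duodenal value of Pycr1 was 0.39 (SE 0.38, adjusted p = 0.887) and, without that library, -0.11. With the acinar score as a covariate it was 0.57 (adjusted p = 0.434).

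Levels also differed along the gut. In mutants 5 of the 9 were lower in the ileum than in the duodenum and none was higher, where 32.3% of genes tested were called (15.2% higher and 17.1% lower). In controls 4 were lower and 1 was higher, where 35.9% were called (17.1% higher and 18.7% lower). Both comparisons hold libraries of the genotype tests and are no independent support for them. Pancreatic acinar genes took 0.373 to 1.04% of counts in mutant ileum and 0.496 to 1.28% in control ileum. The duodenum held 2.31 to 21.5% and 7.80 to 17.01%. The smooth muscle score was 8.44 to 8.84 in mutant ileum and 6.43 to 7.78 in mutant duodenum. In controls it was 7.71 to 8.21 in ileum and 6.26 to 7.41 in duodenum. These ranges do not overlap between tissues, so tissue and the acinar or muscle content of a piece cannot be told apart.

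Arg2 was much lower in the ileum in both genotypes. The mutant ileum held 70.8 ± 21.3 CPM and the mutant duodenum 483 ± 80 (log2 fold change -2.79, SE 0.21, adjusted p = 5.44e-06). The control ileum held 107 ± 35 CPM and the control duodenum 607 ± 93 (-2.52, SE 0.24, adjusted p = 1.93e-05). The tissues do not overlap in either genotype, and the ileum of control NF29 and of mutant NFVCT27 held the lowest shares of their own duodenal level (8.02 and 8.59%).

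Cps1 was lower in the ileum by 0.70 on the log2 scale in mutants (value -0.70, SE 0.16, adjusted p = 0.00735) and by 0.66 in controls (value -0.66, SE 0.15, adjusted p = 0.00398), again without overlap. Aldh18a1 followed, with -0.57 (SE 0.17, adjusted p = 0.0223) in mutants, where the tissues overlapped, and -0.90 (SE 0.14, adjusted p = 0.000305) in controls, where they did not. Oat went the other way. It was higher in the control ileum (693 ± 162 CPM) than in the control duodenum (418 ± 74 CPM), a value of 0.71 (SE 0.18, adjusted p = 0.00889). In mutants the ileum had 671 ± 111 CPM and the duodenum 475 ± 209 (0.48, SE 0.24, adjusted p = 0.153). For Oat the tissues overlapped in both genotypes.

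These calls depend on single animals in places. Among controls, Oat was not called without NF17 (0.56, adjusted p = 0.097) or NF32 (0.64, adjusted p = 0.0727), nor Cps1 without NF32 (-0.58, adjusted p = 0.0546). In mutants, Cps1 was not called without NFVCT38 (-0.70, adjusted p = 0.0615), and Aldh18a1 not without NFVCT27 or NFVCT153 (-0.56 and -0.44, adjusted p = 0.0799 and 0.0969). Oat was called in mutants without NFVCT153 (0.80, adjusted p = 0.0178). Otc was called lower in the mutant ileum than in the mutant duodenum (-0.36, SE 0.12, adjusted p = 0.0395), but not with the animal as a block (adjusted p = 0.0687), nor with no filter on low counts (adjusted p = 0.0604), nor without NFVCT27, NFVCT38 or NFVCT153 (-0.41 to -0.26, adjusted p from 0.111 to 0.177). In controls the value of Otc was -0.04 (SE 0.13, adjusted p = 0.815).

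Prodh, Pycr1 and Ass1 were not called between tissues with all animals in the fit. Without 1 animal, Pycr1 was called in controls (-0.60 without NF29, adjusted p = 0.0459) and Prodh in mutants (0.37 without NFVCT153, adjusted p = 0.0464). Prodh had values of 0.15 (SE 0.15, adjusted p = 0.483) in mutants and 0.14 (SE 0.14, adjusted p = 0.459) in controls. Pycr1 had -0.36 (SE 0.41, adjusted p = 0.53) in mutants and -0.45 (SE 0.18, adjusted p = 0.0646) in controls. Ass1 had 0.05 (SE 0.27, adjusted p = 0.898) in mutants and 0.41 (SE 0.21, adjusted p = 0.143) in controls.

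**Figure D4:**
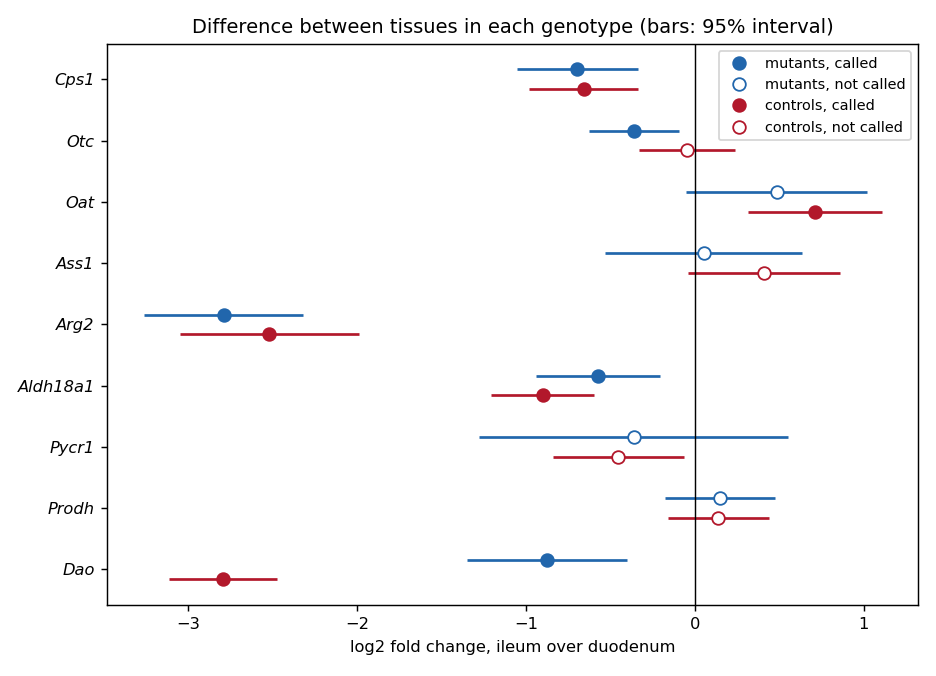
Log2 fold change of each gene, ileum over duodenum, in mutants (upper point of each pair) and controls (lower point), with 95% intervals; filled points were called. Arg2 lies far below 0 in both genotypes (-2.79 in mutants, -2.52 in controls), while Dao lies at -0.88 in mutants and -2.79 in controls.

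Levels of different genes were compared per kilobase of exon. In the mutant ileum the order was Oat (284 ± 47 CPM per kb), Cps1 (195 ± 20), Arg2, Aldh18a1, Otc, Prodh (10.8 ± 1.8), Dao (4.43 ± 0.70), Pycr1 and Ass1 (1.40 ± 0.43); in it Arg2, Aldh18a1 and Otc overlapped in turn, as did Pycr1 and Ass1. In the control ileum the order began with Oat (294 ± 69) and Cps1 (188 ± 17), which overlapped, and ended with Ass1 (1.75 ± 0.27), Dao (1.74 ± 0.34) and Pycr1 (1.29 ± 0.20), which did too. Dao thus lay above Pycr1 and Ass1 in the mutant ileum without overlap, and overlapped its neighbours in the control ileum.

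In the duodenum Arg2 led. In mutants it had 338 ± 56 CPM per kb, overlapping Cps1 (312 ± 32), which overlapped Oat (201 ± 89). In controls Arg2 had 425 ± 65, above Cps1 (294 ± 26) and Oat (177 ± 31) without overlap. Aldh18a1 and Otc came next in each genotype and overlapped. Dao stood below Prodh in mutant duodenum (8.06 ± 2.58 and 9.61 ± 1.99, overlapping) and above it in control duodenum (12.0 ± 0.7 and 6.43 ± 1.21, not overlapping).

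Around these genes, 5 lists of 63 neighbours in the pathways were examined: partners of citrulline, arginine and the urea cycle, genes that feed glutamine and glutamate, proline and hydroxyproline genes, polyamine genes, and genes of D-amino acids and peroxisomal oxidases. In the ileum 58 were tested, of which 1 rose and 2 fell, where 1.77% of all genes were called higher and 1.51% lower. In the duodenum, where 0.394% of all genes were called, edgeR called none of 57. For the difference between tissues, where 0.0441% of all genes were called, it called none of 58. An unadjusted p under 0.05 was found for 14 of 58 in the ileum, 9 of 57 in the duodenum and 3 of 58 for the difference. The number of all genes with such a p was not counted. By the ranks given above, it lay between 1918 and 3139 of 14951 in the ileum. In the duodenum it lay between 550 and 1696 of 14703. For the difference it lay between 3 and 1791 of 15882, the ranks of Dao and Otc.

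Slc25a15, a mitochondrial ornithine carrier, fell in the mutant ileum to 167 ± 25 CPM, against 258 ± 14 in controls. The libraries ranged from 141 to 198 CPM in mutants and from 238 to 268 in controls, without overlap. Its log2 fold change was -0.64 (SE 0.11, adjusted p = 0.00624), and it was called in all 8 fits without 1 library. In the duodenum the value was -0.09 (SE 0.14, adjusted p = 0.949), and the difference of -0.54 between the tissues had an adjusted p = 0.777.

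Got1, the cytosolic aspartate aminotransferase, which interconverts aspartate and glutamate, rose to 126 ± 23 CPM in the mutant ileum, against 78.4 ± 7.6 in controls (0.68, SE 0.13, adjusted p = 0.00989). It too was called in all 8 fits without 1 library. Pipox, a peroxisomal oxidase of pipecolic acid and sarcosine, fell to 12.2 ± 1.9 CPM in the mutant ileum, against 19.3 ± 2.6 in controls (-0.66, SE 0.14, adjusted p = 0.0208). It lost its call without control NF17 or NF152 or mutant NFVCT27, NFVCT153 or NFVCT190 (adjusted p from 0.0508 to 0.0728). With the smooth muscle or the crypt score as a covariate none of these 3 was called (adjusted p from 0.0943 to 0.602), with log2 fold changes from -0.88 to -0.57 for the lower 2 and 0.66 and 0.90 for Got1.

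The lists had ileal medians of -0.02 (citrulline and arginine, 15 tested), 0.32 (glutamine and glutamate, 14 tested), -0.05 (proline, 10 tested), -0.01 (polyamines, 10 tested) and -0.01 (D-amino acids and oxidases, 9 tested), beside -0.0061 over all genes. Their duodenal medians, in the same order, were 0.08, 0.34, -0.07, 0.15 and -0.09, beside -0.00015 over all genes. The glutamine and glutamate list was thus shifted alike in both tissues, with a median difference of 0.06. Between tissues, 6 of the 9 genes of the last list were lower and 1 higher in the ileum of mutants, and 7 were lower and 1 higher in controls. Of all genes tested, 17.1% were lower and 15.2% higher in mutants, and 18.7% lower and 17.1% higher in controls. Over the 5 lists, 20 of 58 were lower and 7 higher in the mutant ileum than in the mutant duodenum. In controls 22 were lower and 14 higher.

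**Figure D5:**
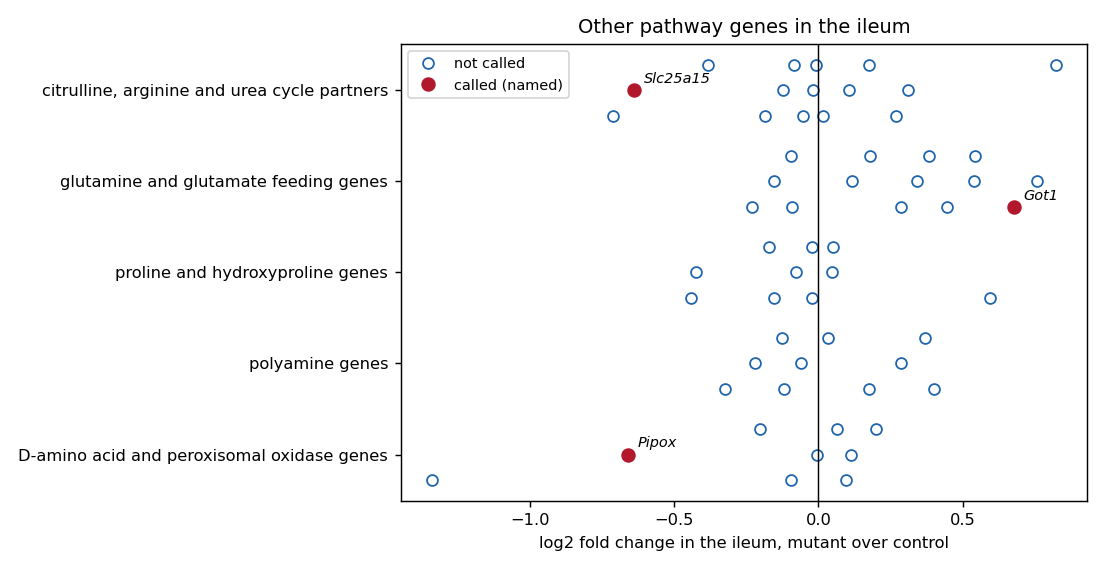
Log2 fold change in the ileum, mutant over control, of the 58 tested genes of the 5 pathway lists (1 point per gene, rows are lists; the vertical offset within a row has no meaning). The 3 called genes are filled and named, with Slc25a15 (-0.64) and Pipox (-0.66) below 0 and Got1 (0.68) above.

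The genes of most like pattern were found by the root mean square difference of log2 CPM over the 16 libraries, each gene centred on its own mean, among 14005 others. For Dao they were Slc2a2, a glucose transporter (0.27), Slc16a6, a monocarboxylate transporter (0.36), and Slc2a5, the fructose transporter (0.38). Slc2a2 averaged 514 CPM in the mutant ileum and 201 in the control ileum, against 1170.2 and 1168 in mutant and control duodenum. The ileal log2 fold changes of Slc2a2, Slc16a6 and Slc2a5, mutant over control, were 1.35, 1.30 and 1.03. Their duodenal values were -0.02, 0.05 and 0.27, none called, where that of Dao was -0.59. The ileal effect minus the duodenal one was 1.38 (adjusted p = 0.288), 1.26 (adjusted p = 0.0135) and 0.77 (adjusted p = 0.999988). For Prodh they were Limk2 (0.20), Eif2s3y (0.20) and Nipsnap2 (0.22). Their ileal log2 fold changes were 0.27, 0.58 and 0.45 (adjusted p = 0.219, 0.00506 and 0.0756). These genes were chosen by their levels in the same libraries, so their fold changes describe that choice and are no separate result.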

How the data were processed

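The authors deposited a table of raw read counts per Ensembl gene with 1 column per library, not normalised, per the file headers and its values. Per the labels' protocols, ribosomal RNA was depleted and a strand-specific kit with PCR was used. Versions in the submitters' processing notes are STAR 2.5.3a, HTSeq 0.6.1p1, Bowtie2 2.2.8, cutadapt 1.10 and bcl2fastq 2.20.0.422, with build mm39. For their order, the annotation and the strand setting, nothing is given in the sources used here. Symbols were matched for 52083 identifiers (98.3% of counts). Exon lengths came from GENCODE M21 on GRCm38, matched by identifier.

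Counts were fitted in R 4.3.3 with edgeR 4.0.16 (TMM, filterByExpr by group, quasi-likelihood F test, robust) on the libraries of each comparison, and SE is the absolute log2 fold change over the root of F. Scores are the mean log2 CPM of a list (prior count 0.5). The code was tested on simulated data. Alternatives were RLE scaling, DESeq2 1.42.0, limma-voom (limma 3.58.1), no filter, covariates, and leaving out each library or, across tissues, each animal. The labels name the same animal for both tissues, and its libraries deviated together (correlations of 0.126 to 0.298 in 8 animals). For NFVCT190 a library of another animal correlated higher (0.193). The animal was therefore a block in the paired alternative across tissues. None of the 24 pairs of libraries within a group agreed within sampling noise. The genes and lists were chosen with earlier results of these data known. Text names all 9 genes, called genes of the 5 lists (at most 4 each by p), and the 3 genes most like each called member.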

Additional observations from a re-analysis of the deposited data

Results flagged for a closer look

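The genotype effect on Dao differed between the tissues by 1.94 on the log2 scale (ileum minus duodenum, edgeR's quasi-likelihood test, adjusted p = 0.00488). Dao was higher in 4 of 4 mutant ileal libraries than in any control and lower in 4 of 4 mutant duodenal libraries than in any control. The duodenal value was not called (adjusted p = 0.333), and the difference was not called without NFVCT38 (adjusted p = 0.0679). Groups did not overlap for 9.79% of all genes tested in the ileum and 5.54% in the duodenum.

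In 36 groups of 4 libraries, 1 library stood far from the other 3 in 2 groups, and chance alone gives about 1 in 20. Oat in the control duodenum was 529 CPM in NF152 and 374 to 386 CPM in the others (gap over range 0.925). Prodh in the mutant duodenum was 98.1 CPM in NFVCT153 and 65.4 to 68.4 CPM in the others (0.907). Without these libraries the duodenal log2 fold change was 0.30 for Oat and 0.43 for Prodh (adjusted p = 0.833 and 0.34).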

How the results depend on the processing

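Ileal calls of Dao and Prodh held under RLE scaling, DESeq2, limma-voom and no filter (which added Otc, 3 of 9), and that of Dao without any 1 library. With the smooth muscle score as a covariate 0 of the 9 genes were called, and with the crypt score 1 (Arg2); leaving out a library left 1 to 2. In the ileum 875 genes in all were called with DESeq2, 1096 with no filter, 21 with the muscle score, 145 with the crypt score and 272 to 472 without 1 library, in place of 490. In the duodenum the counts were 310 with DESeq2, 169 with no filter and, without NF17 and NFVCT190 (highest acinar shares, chosen after seeing the data), 31, with 27 to 61 without 1 library, in place of 58; none of the 9 genes was called in any of these fits. For the difference between tissues, in place of 7 genes, they were 38 with DESeq2, 15 with no filter, 16 with the replicate block and 1 to 9 without 1 animal, which left 0 to 1 of the 9 genes. Between tissues, leaving out 1 animal gave 2818 to 4489 genes and 2 to 5 of the 9 in mutants, and 3443 to 4787 genes and 3 to 6 of the 9 in controls. The replicate block ended the call of Otc in mutants and changed no other call of the 9 genes.

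Some values changed sign. In the duodenum these were Aldh18a1 (-0.029 with limma-voom, -0.081 with the acinar score), Ass1 (0.050 with the acinar score), and Pycr1 (-0.016) and Pipox (0.11) without NF17 and NFVCT190. In the ileum they were Cps1 (-0.12) and Aldh18a1 (-0.23) with the muscle score, and across tissues in mutants Ass1 (-0.048 with limma-voom). Without 1 library, duodenal values ran from -0.16 to 0.31 for Oat, -0.090 to 0.089 for Ass1, -0.12 to 0.10 for Aldh18a1, -0.11 to 0.64 for Pycr1, -0.20 to 0.091 for Pipox and -0.14 to 0.0096 for Slc25a15, and ileal Oat from -0.20 to 0.042. The difference between tissues ran from -0.11 to 0.069 for Cps1, -0.15 to 0.67 for Pycr1, -0.11 to 0.27 for Prodh and -0.41 to 0.13 for Oat. Ileum over duodenum ran from -0.11 to 0.051 for Otc in controls, and from -0.049 to 0.15 for Ass1 and -0.63 to 0.22 for Pycr1 in mutants. The cause of these changes was not tested. Ass1 and Pycr1 rest on the fewest counts.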
